A study of Mus musculus with 8 samples.

Results

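The regions described here are the H3K36me3 peaks on mouse chromosomes 13 and 18, listed over broad domains in C3H10T1/2 cells, an embryo-derived line of mesenchymal progenitors. All listed peaks on these chromosomes are members: 185 on chromosome 13 and 118 on chromosome 18, 303 of 4999 in all (6.06%). The chromosomes were selected on measured values, because more of their H3K36me3 was left in the mutant library than on the other autosomes. The difference between genotypes on these chromosomes is therefore a description and not a finding. The series profiled 3 histone marks, H3K36me3, H3K36me2 and H3K27me3, in 2 genotypes by chromatin immunoprecipitation with a reference of Drosophila S2 chromatin added at 5% of the mouse chromatin (ChIP-Rx). Both genotypes carried a stable FLAG-HA-tagged histone H3.3 transgene and were used at passages 10 to 15. In one the transgene encoded wild-type H3.3 (WT), and in the other its lysine 36 was replaced by methionine (K36M). Each mark and genotype has 1 library, so no difference between genotypes has a replicate check, no test was made and all values describe these libraries. The labels do not name the promoter of the transgene or say how many clones each line came from.

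H3K36me3 is laid down by SETD2, which travels with elongating RNA polymerase II, and marks the bodies of transcribed genes. H3K36me2 is set in large part by NSD methyltransferases, inside and outside genes, and H3K27me3 by Polycomb repressive complex 2 over silent chromatin. H3.3 K36M is a histone mutation of chondroblastoma that inhibits H3K36 methyltransferases, and methylation of lysine 36 hinders the activity of Polycomb repressive complex 2 on the same histone tail.

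Values are spike-in normalized reads per peak, and the ratio is always the K36M value over the WT value. The values are whole multiples of 0.39 in WT and 0.22 in K36M, read here as the worth of 1 sequenced read. By that reading the members of chromosome 13 held 293387 reads in WT and 207006 in K36M, and those of chromosome 18 held 242168 and 162284. The median member had 1340 and 934 reads on chromosome 13, and 1814 and 1249 on chromosome 18. Intervals beside single regions are exact Clopper-Pearson 95% intervals of the ratio and cover counting error only. Positions are those of the deposited lists, on mouse build mm9, counted from 0, and a browser that counts from 1 shows each of them 1 higher.

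In all 303 members K36M had less H3K36me3 than WT, as in 100% of the listed peaks of the genome. On chromosome 13 the members summed to 114421 normalized reads in WT, and K36M had 45541, or 39.8% of that. On chromosome 18 it was 94446 in WT and 35702 in K36M, or 37.8%. On the other 17 autosomes together K36M held 30.0% of the WT level, and on each of them between 26.9% and 33.0%. That both lie outside this range restates how they were chosen. The median member was 2.51-fold lower on chromosome 13 and 2.64-fold lower on chromosome 18, against 3.32-fold on the other autosomes.

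On the log2 scale the median ratio was -1.33 on chromosome 13 (quartiles -1.49 and -1.18) and -1.40 on chromosome 18 (quartiles -1.54 and -1.25). The median of the other 17 autosomes was -1.73 (quartiles -1.86 and -1.58), so the chromosome 13 median lay 0.41 above it and the chromosome 18 median 0.33 above it. Chromosome 6, the autosome just outside the choice, had a median of -1.62, and the lowest was -1.88 on chromosome 15. Chromosome X, which was not among the autosomes compared, had a median of -1.41 over 67 peaks. The members spread by an SD of 0.24 on chromosome 13 and 0.23 on chromosome 18, close to the 0.25 of the other autosomes. Counting error alone would give an SD of 0.079 on chromosome 13 and 0.069 on chromosome 18, as the root mean square over members. The spread among members was thus larger than counting error.

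**Figure D1:**
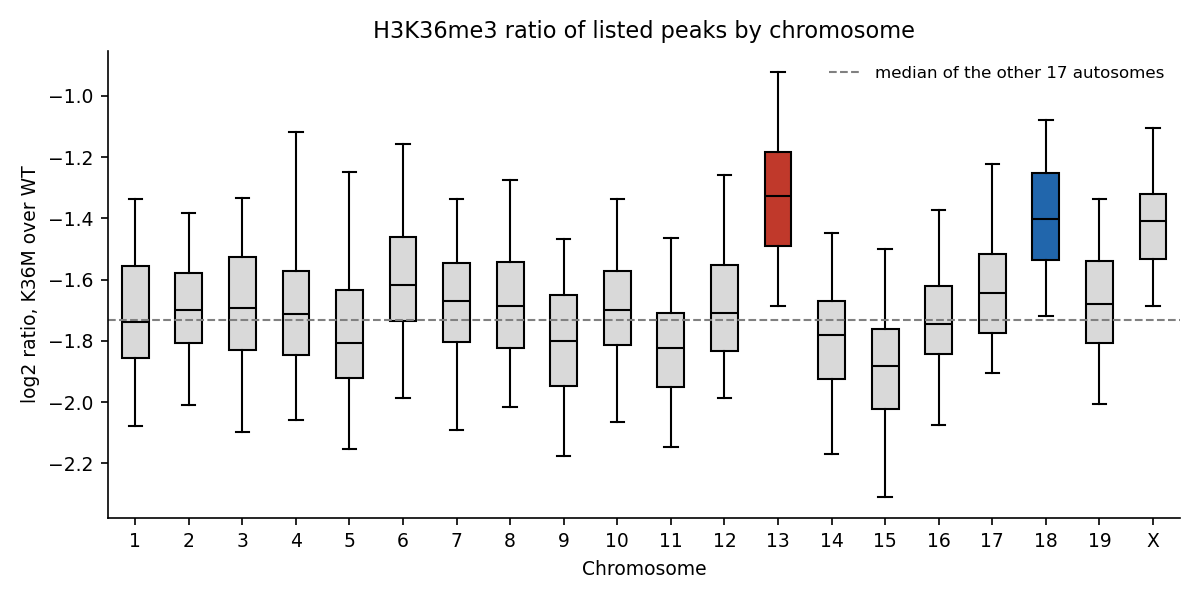
Log2 ratio of H3K36me3 (K36M over WT) of the listed peaks, by chromosome; boxes span the quartiles with the median as a line, and whiskers run from the 5th to the 95th percentile of peaks. Chromosome 13 (median -1.33) and chromosome 18 (median -1.40) sit above the dashed median of the other 17 autosomes (-1.73), as does chromosome X (-1.41).

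Most members took part in the difference that chose the chromosomes. On chromosome 13, 180 of 185 members (97.3%) lay above the median of the other autosomes, and 124 (67.0%) lay above their 90th percentile of -1.43. On chromosome 18, 112 of 118 members (94.9%) lay above that median and 69 (58.5%) above that percentile. Members less than 3-fold lower numbered 166 on chromosome 13 (89.7%) and 95 on chromosome 18 (80.5%), beside 29.7% of all peaks. Among the other autosomes this share ran from 8.96% on chromosome 15 to 45.1% on chromosome 6. Nothing is read from these counts, since the same contrast chose the chromosomes.

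The spike-in factor multiplies every peak of a library alike. When both H3K36me3 libraries were scaled to the same total, 178 of 185 members on chromosome 13 (96.2%) and 111 of 118 on chromosome 18 (94.1%) were higher in K36M, beside 50.4% of all peaks. Chromosome 13 held 2.60% of the WT signal inside peaks and 3.40% of the K36M signal. For chromosome 18 the shares were 2.14% and 2.66%. These values restate the contrast that chose the chromosomes on a scale without the spike-in factor, and nothing is read from them.

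Both libraries took part in the difference. In WT the median signal density was 17.1 normalized reads per kb on chromosome 13 and 17.3 on chromosome 18, with 18.9 on the other autosomes, and 15 of the 17 others had a higher median than either. In K36M it was 6.74 on chromosome 13 and 6.53 on chromosome 18, with 5.67 on the other autosomes, and 0 of the 17 others had a higher median. The WT density was thus 0.903 and 0.912 times that of the other autosomes, on chromosomes 13 and 18, and the K36M density 1.19 and 1.15 times. Both densities are parts of the ratio that chose the chromosomes, so these values describe that choice. A low WT density was not particular to them: chromosome 3 had 16.8, with a median log2 ratio of -1.69. Within each chromosome, members dense in WT were also dense in K36M: the Spearman rho across members was 0.85 on chromosome 13 and 0.84 on chromosome 18, with 0.84 across 4629 peaks of the other autosomes. These correlations run across peaks that share both libraries, and carry no p-value.

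**Figure D2:**
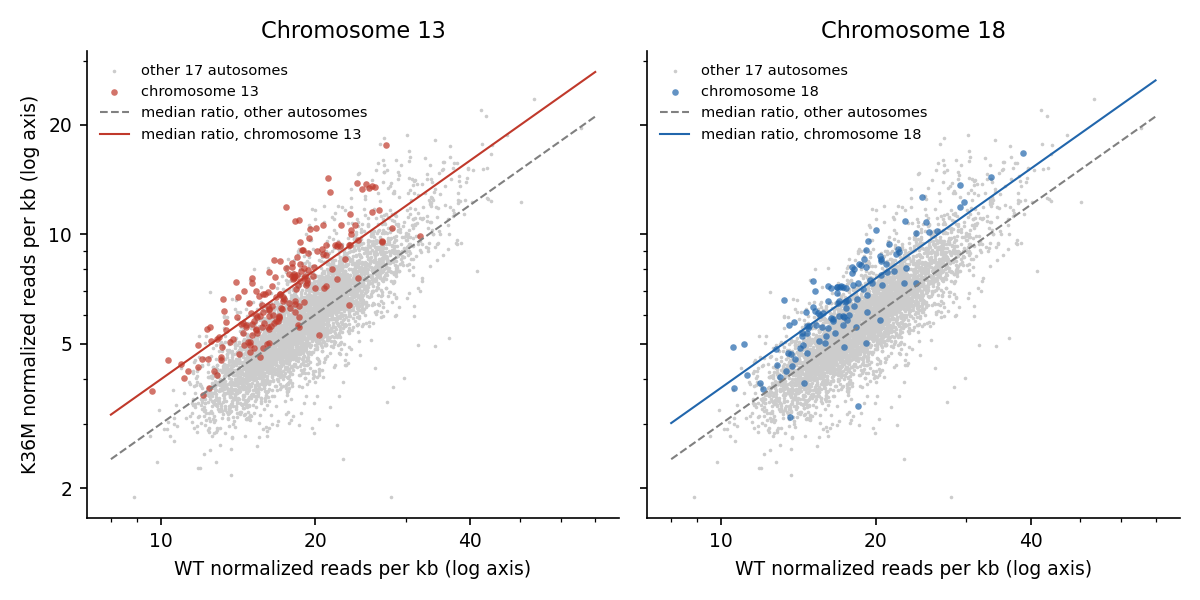
H3K36me3 signal per kb in WT (x axis) and K36M (y axis), in spike-in normalized reads per kb on log axes, with 1 point per listed peak; the lines mark the median ratio of the coloured chromosome and of the other 17 autosomes. Most members lie on the upper side of the grey cloud, between 9.62 and 38.6 normalized reads per kb in WT, with medians of 17.1 and 6.74 on chromosome 13 and 17.3 and 6.53 on chromosome 18.

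The members of chromosome 13 ran from 3538600 to 120276799, over 116.7 Mb, of which they covered 5.78%. The median gap between neighbours was 201.2 kb, and the largest gap, 4829.2 kb, lay between 25098999 and 29928200. In 10 Mb windows with at least 5 members, the median log2 ratio went from -1.44 at 40 to 50 Mb (20 members) to -1.19 at 80 to 90 Mb (5 members), a range of 0.25 that was 0.13 with windows of 20 Mb. All 12 such windows had a median above that of chromosome 6, and 1 further window held 1 member only. The first of the 12 windows had a median of -1.23 and the last -1.25, both in the upper part of the range of window medians. The Spearman rho between position and ratio was -0.10 across the 185 members, which measures a trend in 1 direction only. The window at 30 to 40 Mb had the densest signal, with medians of 19.1 normalized reads per kb in WT and 7.88 in K36M, and a median ratio of -1.31.

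The members of chromosome 18 ran from 3391200 to 89061999, over 85.7 Mb, and covered 6.61% of it. Their median gap was 287.8 kb, and the largest, 5858.8 kb, separated the last listed domain from the one before it. The 9 windows had medians from -1.49 at 10 to 20 Mb (10 members) to -1.23 at 40 to 50 Mb (7 members), a range of 0.26, and all 9 lay above the median of chromosome 6. The window at 30 to 40 Mb was the fullest, with 28 members over 1500.4 kb and a median of -1.42. The first and the last window had medians of -1.28 and -1.27, here too in the upper part of the range. The Spearman rho between position and ratio was -0.07 across the 118 members.

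The window ranges were like those of the other autosomes, where the range within a chromosome went from 0.14 to 0.95 with a median of 0.26. For the levels, of 214 windows on the other autosomes, 2 (0.935%) reached the lowest window of chromosome 13, and 2 reached the lowest of chromosome 18. They lay at 10 to 20 Mb of chromosome 5, where 13 peaks had a median of -0.96 and a median length of 6.40 kb, and at 0 to 10 Mb of chromosome 6, where 6 peaks had a median of -1.41. Leaving out each window of chromosome 13 in turn gave a distance from the other autosomes of 0.376 to 0.411, and on chromosome 18 of 0.318 to 0.353. As the same ratios chose the chromosomes, these distances are descriptions.

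**Figure D3:**
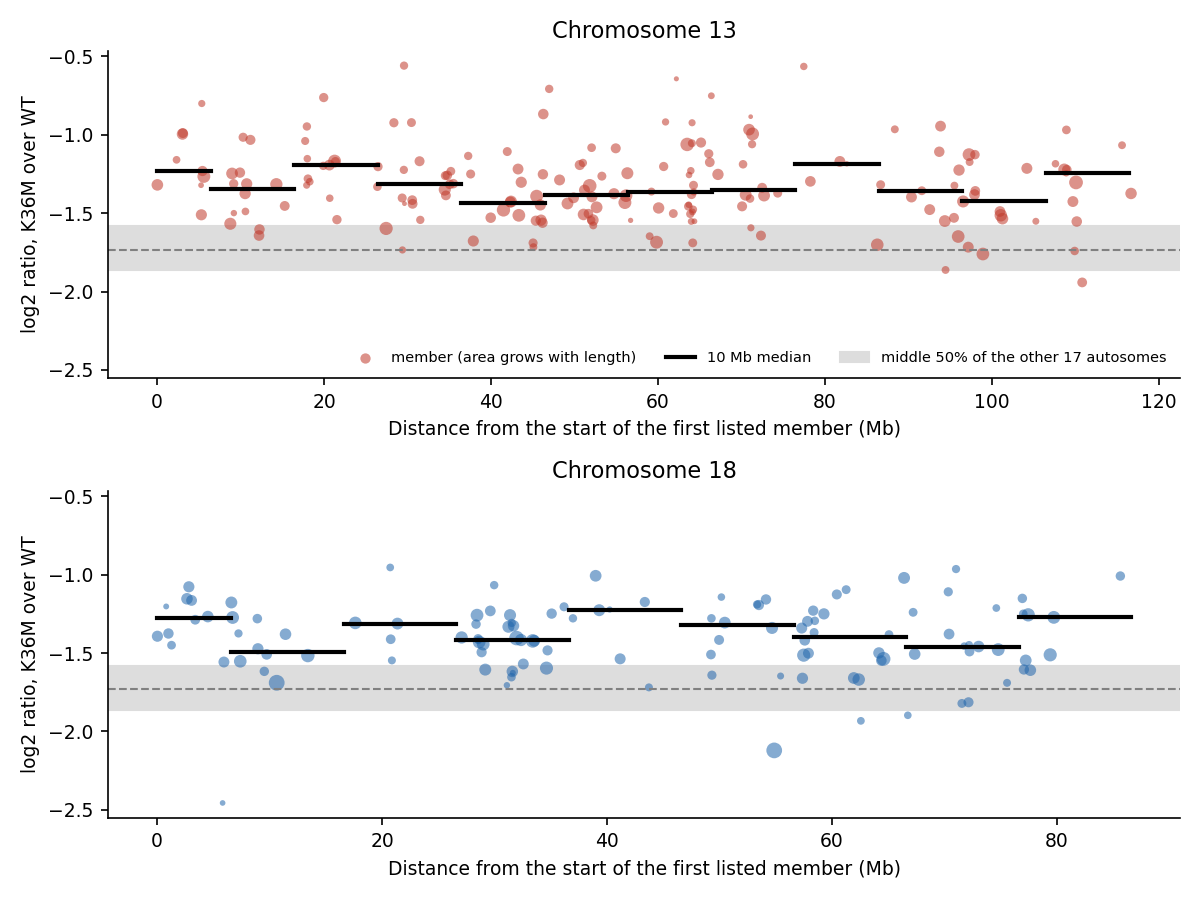
Log2 ratio of H3K36me3 (K36M over WT) of each member against its distance in Mb from the first listed member of its chromosome; point area grows with length, black bars are medians of 10 Mb windows with at least 5 members, and the grey band holds the middle 50% of the peaks on the other 17 autosomes around their dashed median. The window medians run from -1.44 to -1.19 on chromosome 13 and from -1.49 to -1.23 on chromosome 18, all above the band.

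Neighbouring members of chromosome 13 did not resemble each other more than pairs of its members in general. The median difference in log2 ratio between neighbours was 0.25, and 0.22 over all pairs of members. On chromosome 18 these were 0.19 and 0.20. On each of the other autosomes the median difference between neighbours, from 0.15 to 0.21, was below that over all pairs, from 0.17 to 0.23. The fullest 1 Mb of chromosome 13, at 67 to 68 Mb, shows this mixture in a small space; it was chosen after its values were seen. It holds 16 members between 66998600 and 67927799, which are 3.80 to 109.8 kb long, and their ratios ran from 0.310 to 0.527 with a median of 0.376. The longest of them, chr13:66998600-67108399, went from 1596 normalized reads in WT to 765 in K36M, so the ratio was 0.479 (0.458 to 0.501). The lowest of the 16 ratios, in chr13:67715600-67736199, a member of 20.6 kb, was 0.310 (0.276 to 0.347), from 334 and 104. Chromosome 18 had no stretch as full: its fullest 1 Mb, at 34 to 35 Mb, held 6 members with ratios from 0.307 to 0.418.

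By length, the members of chromosome 13 lay at the short end of the autosomes and those of chromosome 18 near the long end. The median length was 29.8 kb on chromosome 13 and 41.7 kb on chromosome 18, and from 30.0 to 43.0 kb on the other autosomes. To compare members of like length, the 4999 peaks were divided into 5 classes of about equal size. The shortest class, 1.2 to 16.2 kb, held 50 of the 185 members of chromosome 13, and the longest, up to 331 kb, held 21.

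On chromosome 13 the median log2 ratio was -1.28 in the shortest class (50 members), -1.26 in the next (41), then -1.37 (30), -1.38 (43) and -1.39 in the longest (21). Shorter members thus lay higher, by 0.11 from end to end, as on the other autosomes, where the medians went from -1.65 to -1.77. On chromosome 18 there was no such order: the medians were -1.45 (21 members), -1.28 (21), -1.42 (19), -1.38 (35) and -1.44 (22), from short to long. The shortest class of chromosome 18 lay only 0.20 above the other autosomes, while in the remaining classes of both chromosomes the distance was 0.32 to 0.45. The Spearman rho between length and ratio was -0.17 on chromosome 13, -0.07 on chromosome 18 and -0.18 on the other autosomes. With 3 classes of the members in place of these 5 the difference between long and short members of chromosome 18 changed sign, from 0.012 to -0.044, so it has no stable direction.

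Signal density in WT showed the same order on both chromosomes. In the sparsest of 5 classes, 8.86 to 15.5 normalized reads per kb, the median log2 ratio was -1.40 on chromosome 13 (56 members) and -1.45 on chromosome 18 (36 members). In the densest, 23.0 to 65.6 per kb, it was -1.19 (22 members) and -1.25 (11 members). Denser members thus had higher ratios, by 0.21 on chromosome 13 and 0.20 on chromosome 18 from end to end. On the other autosomes the medians went from -1.77 to -1.67. WT signal is also the denominator of the ratio. Classes of the mean of both genotypes per kb, with each library scaled to its own total, gave a difference of 0.27 on chromosome 13 and 0.35 on chromosome 18. K36M signal, the numerator of the ratio, is part of this mean, so these classes are not free of the ratio either. In these classes the medians of the other autosomes also went further apart, from -1.85 to -1.57.

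At like WT density the K36M density was higher on both chromosomes. In the middle class the median WT density was 18.6 normalized reads per kb on chromosomes 13 and 18 and 18.8 on the other autosomes, and the K36M density was 7.68, 7.33 and 5.63. In the sparsest class the K36M density was 5.26 on chromosome 13, 4.98 on chromosome 18 and 4.12 on the other autosomes, and in the densest 10.5, 11.9 and 8.30. The distance from the other autosomes was 0.37 to 0.48 on chromosome 13 over the 5 classes and 0.32 to 0.42 on chromosome 18. Chromosome 13 had 30.3% of its members in the sparsest class and chromosome 18 had 30.5%. Within joint classes of length and WT density, the distance was 0.396 on chromosome 13 and 0.353 on chromosome 18. A higher K36M density at like WT density is a higher ratio, which is what chose the chromosomes. The distances in classes of density and of length therefore restate that choice, and nothing more is read from them.

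**Figure D4:**
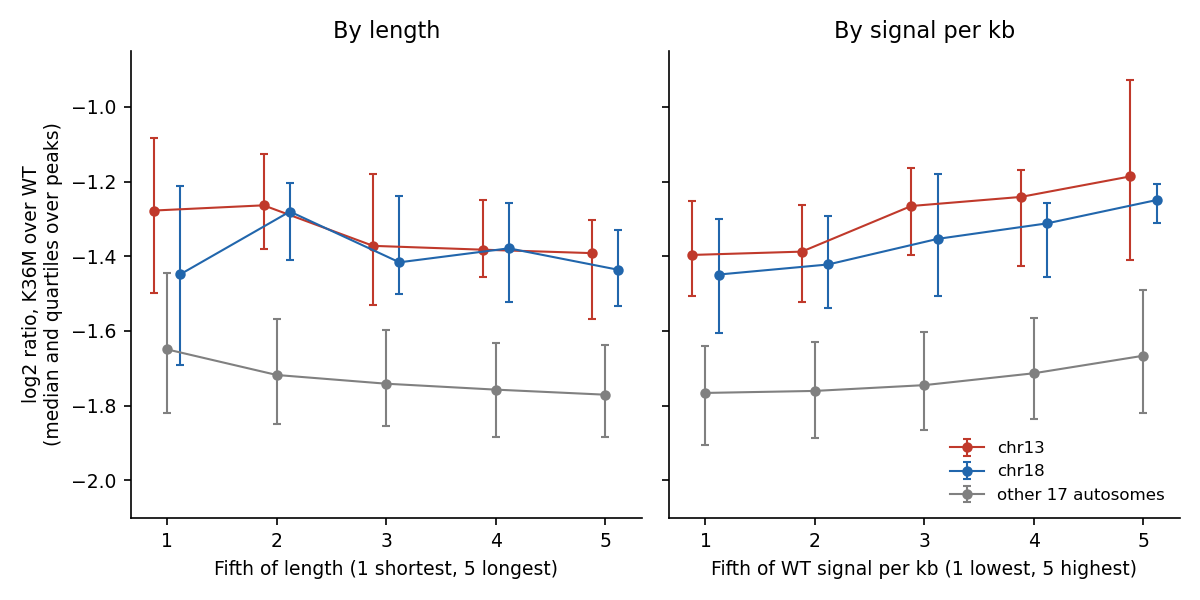
Median log2 ratio of H3K36me3 (K36M over WT) in 5 classes of peak length (left) and of WT signal per kb (right), with bars for the quartiles over peaks, for chromosome 13, chromosome 18 and the other 17 autosomes. Both chromosomes lie above the other autosomes in each class, with the smallest distance, 0.20, in the shortest class of chromosome 18.

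Single members of chromosome 13 with a mean signal at or above the median of all peaks, 72 of 185, show how far apart well-covered domains lay. The 3 lowest ratios belonged to long domains. In chr13:102449800-102536999, 87.2 kb long, WT had 1362 normalized reads and K36M 402, a ratio of 0.295 (0.279 to 0.312). In chr13:89794400-89877399 it was 1312 and 403, a ratio of 0.307 (0.290 to 0.326). The third, chr13:63341600-63432799, was also the domain with the most signal and the densest on the chromosome in WT, 31.9 normalized reads per kb over 91.2 kb. WT had 2907 normalized reads there and K36M 904, a ratio of 0.311 (0.299 to 0.323), so the strongest domain of the chromosome lay below the lower quartile of its members.

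The 3 highest ratios among them belonged to chr13:49795400-49836399, where WT had 1028 normalized reads and K36M 563 (0.548, interval 0.519 to 0.579), to chr13:97395200-97440599, with 909 and 473 (0.520, 0.490 to 0.551), and to chr13:74439000-74500599, with 1021 and 522.5 (0.512, 0.484 to 0.541). These 6 domains were picked as the extremes of the ratio. The longest domain, chr13:113593400-113713199, is 119.8 kb long and had 1886 and 764, a ratio of 0.405 (0.388 to 0.423), close to the median ratio of the members. The next, chr13:55314600-55430599, had 2203 and 879, a ratio of 0.399 (0.383 to 0.416). The first and the last member of the chromosome, chr13:3538600-3599199 and chr13:120219400-120276799, had ratios of 0.401 and 0.386.

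The other dense members of chromosome 13 were very short. In chr13:33179600-33181399, 1.80 kb long, the WT density was 28.2 normalized reads per kb and the ratio 0.369 (0.277 to 0.489), from 50.7 and 18.7 normalized reads. In chr13:65760800-65762999, 2.20 kb long, the density was 27.5 and the ratio 0.641 (0.513 to 0.800), from 60.5 and 38.7. Their intervals are wide, but they do not overlap.

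On chromosome 18, 68 of 118 members had a mean signal at or above the median of all peaks. The lowest ratio among them was in chr18:58166600-58369799, a domain of 203.2 kb with the most WT signal on the chromosome. WT had 2772 normalized reads there and K36M 637, a ratio of 0.230 (0.220 to 0.240), or 4.35-fold lower. This domain was sparse in both libraries, with 13.6 normalized reads per kb in WT and 3.14 in K36M, the lowest K36M density of all 303 members. The next lowest, chr18:75528600-75562999, had 702 and 200, a ratio of 0.284 (0.262 to 0.308). The longest domain of either chromosome, chr18:13922200-14128999 with 206.8 kb, had 2694 and 835, a ratio of 0.310 (0.298 to 0.323). The 2 longest domains of chromosome 18, which are also its 2 strongest in WT, were therefore among its lowest ratios.

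The highest ratios among the well-covered members of chromosome 18 were 0.498 (0.473 to 0.524) in chr18:42357400-42420399, where WT had 1214 normalized reads and K36M 604, 0.493 (0.466 to 0.522) in chr18:69781600-69848199, with 1005 and 495, and 0.474 (0.447 to 0.502) in chr18:6188400-6240199, with 991 and 470. A long domain of middling ratio was chr18:35276200-35425399, with 2214 and 836 over 149.2 kb (0.378, 0.362 to 0.394). The 3 densest members were short and close to each other in ratio. In chr18:4195200-4199199, 4.00 kb long with 38.6 normalized reads per kb in WT, the ratio was 0.434 (0.373 to 0.506). In chr18:43632400-43637399 and chr18:52674800-52692999, with 33.5 and 29.7 per kb, it was 0.429 and 0.412. The first member, chr18:3391200-3442199, had a ratio of 0.381. The last, chr18:89035800-89061999, which stands alone behind the largest gap, had 0.497 (0.451 to 0.548). These are single members: the first and the last 10 Mb window had like median log2 ratios, -1.28 (12 members) and -1.27 (9 members).

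Members less than 2-fold lower were 21 on chromosome 13 (11.4%) and 2 on chromosome 18 (1.69%), beside 1.46% of all peaks. Chromosome 13 thus held 28.8% of the 73 such peaks of the genome. Nothing more is read from these counts, for the reason given above. The 21 lay in 10 of the windows of chromosome 13. They were shorter than the remaining 164, with a median length of 16.4 kb against 31.4 kb, and denser in WT, with 20.0 against 16.9 normalized reads per kb. In K36M the densities were 10.97 and 6.41, which enter the ratio that set these members apart. In 8 of the 21 the whole counting interval lay above a ratio of 0.5. The highest ratios, named after their values were seen, were 0.679 (0.614 to 0.752) in chr13:33120600-33136199, with 274 and 186 normalized reads, and 0.677 (0.603 to 0.759) in chr13:81026800-81036999, with 215 and 146. The 2 of chromosome 18 had ratios of 0.513 and 0.516, and neither interval lay wholly above 0.5.

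At the other end, 0 members of chromosome 13 and 2 of chromosome 18 were at least 4-fold lower, beside 9.96% of all peaks. One is the domain of 203.2 kb described above. The other, chr18:9214200-9217599, was chosen after its values were seen; it is 3.40 kb long, and its ratio was 0.182 (0.131 to 0.250), from 62.8 normalized reads in WT and 11.4 in K36M.

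The other 2 marks were measured in other libraries of the same cells, and took no part in the choice of the chromosomes. At least 1 bp was shared with a listed H3K36me2 peak by 3 members of chromosome 13 (1.62%) and 2 of chromosome 18 (1.69%), where 320 of 4629 H3K36me3 peaks of the other autosomes (6.91%) shared one. A listed H3K27me3 peak met 1 member of chromosome 13 (0.541%) and 0 of chromosome 18, and 45 peaks of the other autosomes (0.972%). In chr13:23490600-23515199 all 3 marks met. For H3K36me3, WT had 458 normalized reads there and K36M 270, a ratio of 0.590 (0.544 to 0.639). The H3K36me2 peak chr13:23493000-23504599 inside it had 697 and 363, a ratio of 0.521 (0.467 to 0.581). The H3K27me3 peak chr13:23464800-23504799, which shares 14.2 kb with it, had 644 and 620, a ratio of 0.964 (0.915 to 1.02). So both methylation states of lysine 36 were less than 2-fold lower there, and the H3K27me3 values of the genotypes differed by less than counting error. A high H3K36me3 ratio beside H3K27me3 was not particular to this member. The 45 such peaks of the other autosomes had a median 2.36-fold lower in K36M, against 3.32-fold over all peaks of those autosomes.

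In each of the other places the ratio of H3K36me2 was above that of H3K36me3, by amounts that differed between places. In chr13:13833800-13856999 H3K36me3 was 396 and 196 normalized reads (0.495), and the H3K36me2 peak in it, chr13:13845400-13847599, was 198 and 121 (0.613, 0.503 to 0.748). In the short dense member at chr13:33179600-33181399 H3K36me3 had a ratio of 0.369 and H3K36me2 of 0.393. On chromosome 18, chr18:60753600-60806199 had a ratio of 0.316 for H3K36me3, and the H3K36me2 peak in it, chr18:60797600-60798799, 0.360 (0.263 to 0.491). The H3K36me2 peak chr18:75562600-75566399 shares only 0.4 kb with its member, and the ratios were 0.350 and 0.284. The order of the 3 places of chromosome 13 was not the same for both marks, and 5 places are too few to read a relation.

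Over whole chromosomes, H3K36me2 also had higher ratios on 13 and 18 than on most autosomes. The median log2 ratio was -1.93 over 50 peaks of chromosome 13 and -1.91 over 15 of chromosome 18, with -2.08 on the other autosomes. This put them 0.15 and 0.17 above, at the fourth and the third place among the 19 autosomes, below chromosomes 17 and 11. The H3K36me2 peaks of chromosomes 13 and 18 were shorter and weaker than those of the other autosomes. Their median length was 7.7 and 5.0 kb, against 15.0 kb. Their median K36M signal was 81.6 and 65.0 normalized reads, against 165.6. The size of both H3K36me2 distances depended on the setting. On chromosome 13 it was 0.348 with a pseudocount, 0.280 over peaks whose mean signal reached the median and 0.299 from summed signal, and on chromosome 18 it was 0.383, 0.393 and 0.195. The 0.393 rests on a single peak, chr18:5125000-5155199, the sole peak of chromosome 18 whose mean signal reached the median. At least 4-fold lower were 15 of 50 peaks on chromosome 13 (30.0%) and 5 of 15 on chromosome 18 (33.3%), beside 59% of all H3K36me2 peaks. Among peaks away from any listed H3K36me3 peak the medians were -1.94 (47 peaks) and -1.94 (13 peaks), against -2.14 over 1294 peaks of the other autosomes. The H3K36me2 peaks with the extreme ratios on chromosome 13 were chr13:5421600-5424799, where WT had 147 normalized reads and K36M 21.3 (0.145, 0.100 to 0.207), and chr13:13845400-13847599, described above. On chromosome 18 they were chr18:8229200-8233599, with 191 and 37.4 (0.196, 0.147 to 0.259), and chr18:60797600-60798799.

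H3K27me3 had 12 listed peaks on chromosome 13 and 4 on chromosome 18, too few to describe either chromosome closely. On chromosome 13, 9 of 12 were higher in K36M, beside 37.5% of all H3K27me3 peaks. The median log2 ratio of the 12 was 0.18, against -0.09 on the other autosomes, which put the chromosome 0.27 above, the highest median of the 19 autosomes. From summed signal the distance was 0.181, and chromosome 17, with a summed ratio of 1.08, lay above chromosome 13 with 1.07. Single ratios went from 0.830 (0.750 to 0.918) in chr13:83852600-83872399, with 189 and 157 normalized reads, to 1.29 (1.11 to 1.51) in chr13:21629400-21637799, with 63.9 and 82.4. On chromosome 18 the 4 peaks were split, 2 higher and 2 lower in K36M. Their ratios were 0.587 (0.524 to 0.657) in chr18:68832000-68860599, 0.833 in chr18:17015000-17026799, 1.16 in chr18:67264400-67298999 and 1.70 (1.36 to 2.13) in chr18:80526600-80530199. Their median lay 0.07 above the other autosomes, and the sum of their signal gave -0.02, so no direction is stated for chromosome 18.

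Chromosome 13 thus lay above the pooled median of the other autosomes in all 3 marks, by 0.41, 0.15 and 0.27, and chromosome 18 in both lysine 36 marks, by 0.33 and 0.17. A median above the pooled one in all 3 marks was not particular to them: 5 of the other autosomes had it, namely 6, 8, 12, 17 and 19, as had chromosome X, by 0.32, 0.50 (over 2 H3K36me2 peaks) and 0.58. The input libraries of both genotypes were not analysed here, so the amount of DNA that each chromosome contributed was not measured, and its part in these values was not tested.

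**Figure D5:**
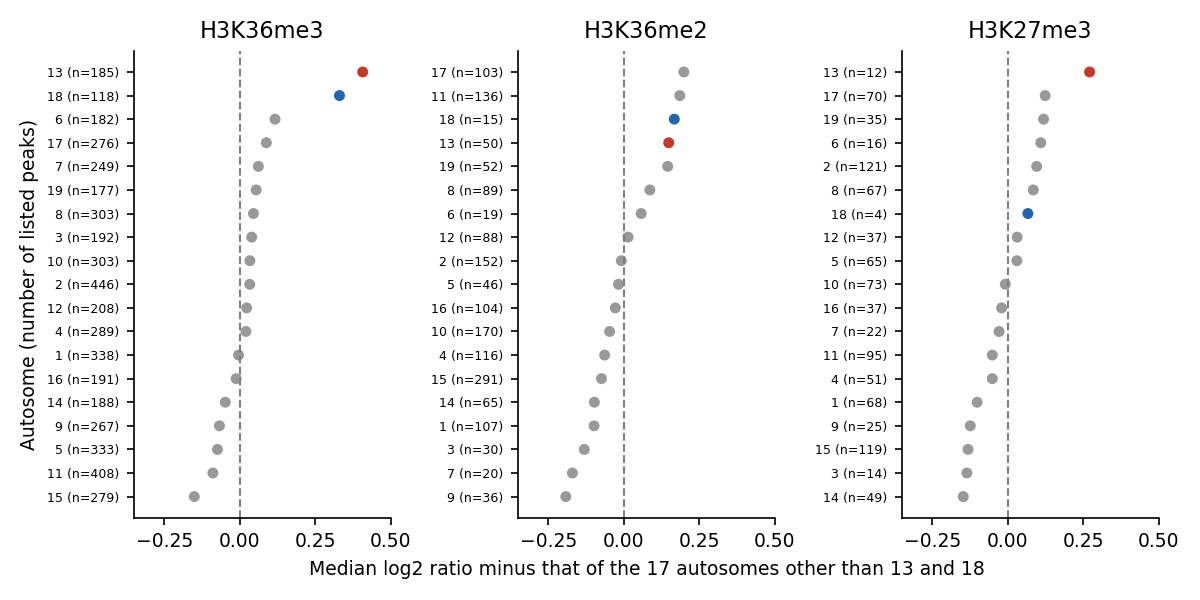
Median log2 ratio (K36M over WT) of each autosome's listed peaks minus the median of the 17 autosomes other than 13 and 18, for 3 marks, with autosomes ordered within each mark and the number of listed peaks in brackets. Chromosome 13 (red) lies 0.41, 0.15 and 0.27 above for H3K36me3, H3K36me2 and H3K27me3, and chromosome 18 (blue) 0.33, 0.17 and 0.07.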

How the data were processed

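The deposited values are a signal, the number of reads in each peak scaled by the authors to the Drosophila reference, per the file headers, in 1 table per mark with 1 column per genotype. The submitters' processing notes name Bowtie 1.0.0, mouse build mm9 and fly build dm6. The peak caller, its settings, the library in which peaks were called, the formula of the scaling factor and whether the lists are complete were not given in the sources used here. Each column's values are whole multiples of 1 step, taken as 1 read to compute counting intervals. These cover counting error only, as the reads carry no molecular identifiers.

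The ratio is K36M over WT without a pseudocount. Chromosome medians were set against the 17 other autosomes. Classes of length and density used edges from all H3K36me3 peaks, and windows were 10 Mb wide with at least 5 members. Another mark overlapped a member from 1 bp. The members and the lists were chosen with earlier results of these data known. Named regions were, per chromosome, the 3 lowest and the 3 highest ratios among members whose mean signal reached the median of all peaks, the 3 longest, strongest and densest, the first and last, the other marks' 2 lowest and 2 highest ratios, and overlapping peaks; others are marked where they are named. No annotation of build mm9 was used, so the genes fixed for naming were not looked up and no sequence is printed. The input libraries were not analysed here. Alternatives were a pseudocount, a minimum of signal, summed signal, equal totals, chromosome X included, other thresholds, windows and classes, windows or overlapping members left out, and factors rounded to the deposited decimals. The calculations were tested on simulated counts. Python 3.11.15 with numpy 2.4.6, pandas 2.3.3, scipy 1.17.1 and matplotlib 3.10.9 was used.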

Additional observations from a re-analysis of the deposited data

How the results depend on the processing

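Of 70 alternative values, 60 kept their sign and stayed inside the 95% interval of the reported value or, for counts, within 1.5 times of it. That interval comes from the ranks of the peaks around their medians, and not from replicates. Some alternatives could not leave it. Equal totals shift every log2 ratio of a mark alike and cannot change a distance. For the range of window medians the interval went from -0.450 to 0.980 on chromosome 13 and from -0.439 to 0.610 on chromosome 18. The 60 are therefore no measure of stability. A pseudocount brought the distance of H3K36me3 on chromosome 18 from 0.330 to 0.281. For H3K36me2 on chromosome 13 the distance was 0.149, and it was 0.348 with a pseudocount, 0.280 over peaks whose mean signal reached the median and 0.299 from summed signal. On chromosome 18 the H3K36me2 distance of 0.167 was 0.383 with a pseudocount and 0.393 from chr18:5125000-5155199, the sole such peak there. With 20 Mb windows the range of window medians on chromosome 13 was 0.129 in place of 0.253. For H3K27me3 on chromosome 18 the distance from the other autosomes was 0.066 and turned to -0.017 from summed signal, over 4 peaks. The difference between long and short members of chromosome 18 went from 0.012 to -0.044 with 3 classes of the members. At a 3-fold threshold in place of 2-fold the counts of members lower by less than the threshold were 166 in place of 21 on chromosome 13 and 95 in place of 2 on chromosome 18. If the factors were rounded, these 21 could be 15 to 25, and the 2 could be 0 to 5. Except where the alternative itself sets the number, the cause was not tested. No paired analysis was possible because each group holds 1 library, and for the same reason no replicate could be left out. Depth limits single short members most: the fewest reads in a member were 101 in WT and 52 in K36M.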

Other observations

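Chromosomes 13 and 18 carried few listed H3K36me3 peaks for their length. They held 15.8 and 13.8 peaks per 10 Mb between the first and the last, where the other 17 autosomes held 12.4 on chromosome 6 to 34.4 on chromosome 11, with a median of 22.4. The share of that length covered was 5.78% and 6.61%, against 5.32% to 17.5% elsewhere. Set against protein-coding genes, counted for the whole chromosome in RefSeq annotation of GRCm38.p6, the density was ordinary. Chromosome 13 has 829 such genes and 22.3 listed peaks per 100 of them, and chromosome 18 has 511 and 23.1. The other autosomes had 12.3 on chromosome 7 to 35.95 on chromosome 15, with a median of 25.4. Chromosomes 3 and 6 were the sparsest per 10 Mb, with 12.5 and 12.4, and their median log2 ratios of H3K36me3 were -1.69 and -1.62. These are descriptions over 19 autosomes, chosen after the values were seen, and no relation was tested.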
